A study of Mus musculus with 9 samples.

Results

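The 9 genes Adgrf5, Adgrl1, Adgrl2, Adgrl3, Adgrl4, Adgrg1, Adgrg6, Adgre5 and Adgrb3 encode adhesion G protein-coupled receptors. They were taken from a list of names, chosen with earlier results of these data known. Read were the probe sets of the array whose annotation names 1 of them alone. This gave 21 probe sets for the 9 genes, among 18194 genes measured in the series. Where a gene had several probe sets, the brightest one on average was read and the others served as a check. All 9 passed the filter on low values (a log2 intensity of at least 4 on at least 3 arrays), as did 12009 genes in all. None of the 9 passed through 1 group alone, since each reached 4 on 6 or more arrays.

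The series holds 9 arrays of mouse brain RNA, 3 for each of 3 groups. Embryonic fragments were microvascular fragments, pieces of small vessels, from NMRI embryos at embryonic day 18.5, and rest of brain was brain tissue of NMRI embryos of that day without the fragments. Adult fragments were microvascular fragments from mice of a mixed C57/SV129 background aged 1 year, 2 male and 1 female. The description of rest of brain replicate 3 names another embryonic day than its title and age label, and the array was kept by its title. Without it, the calls of the 9 receptors stayed as reported but for Adgrg1 between adult fragments and rest of brain. No allele or treatment is named in the labels for any group. RNA came from a micro kit for embryonic and a mini kit for adult tissue, so age, strain and kit cannot be told apart between the fragments of the 2 ages. No adult rest of brain is among the samples, and how fragments were isolated, and whether animals were pooled, is not stated in the labels. The labels call the arrays of a group biological replicates, and every mean ± SD is over n = 3 arrays.

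Adhesion G protein-coupled receptors join a long extracellular part, which binds matrix proteins or proteins on neighbouring cells, to a membrane part with the fold of a G protein-coupled receptor. Many cut themselves at a site just outside the membrane, and the stub left on the membrane part can then act as a tethered agonist. In brain, latrophilins (Adgrl1, Adgrl2 and Adgrl3) and the Adgrb receptors are known from synapses, Adgrg1 from progenitors and glia, and Adgrl4 and Adgrf5 from endothelium.

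The sequences just before the starts of Adgrl4 and Adgrf5, which had the largest differences between fragments and rest of brain, are shown because their values moved together over the arrays, and that of Adgrb3 because it moved the other way. Promoter sequences are RefSeq's for build GRCm38.p6, which held 12 starts for 8 of the 9 genes, and the 250 bases before each start are printed 5′ to 3′ on the strand of the gene. Capitals mark matches, on either strand, to AGGAAG, a core of ETS factor sites. Also searched on both strands were CGGAAG, another ETS core, then ACAAT, the core of SOX factor sites, and the TATA box as TATAAA. No 2 matches overlap.
Adgrl4 (chr3:151437632-151437881, + strand): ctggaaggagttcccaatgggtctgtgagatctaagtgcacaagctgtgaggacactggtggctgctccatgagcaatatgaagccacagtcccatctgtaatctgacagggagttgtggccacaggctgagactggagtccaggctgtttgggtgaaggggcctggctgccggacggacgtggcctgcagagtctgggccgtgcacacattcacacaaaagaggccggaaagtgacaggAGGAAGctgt
Adgrf5, start 1 (chr17:43360181-43360430, + strand): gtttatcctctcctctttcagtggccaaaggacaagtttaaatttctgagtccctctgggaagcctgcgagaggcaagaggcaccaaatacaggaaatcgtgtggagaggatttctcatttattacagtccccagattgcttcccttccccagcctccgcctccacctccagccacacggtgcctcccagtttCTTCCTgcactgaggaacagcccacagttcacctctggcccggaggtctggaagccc
Adgrf5, start 2 (chr17:43389216-43389465, + strand): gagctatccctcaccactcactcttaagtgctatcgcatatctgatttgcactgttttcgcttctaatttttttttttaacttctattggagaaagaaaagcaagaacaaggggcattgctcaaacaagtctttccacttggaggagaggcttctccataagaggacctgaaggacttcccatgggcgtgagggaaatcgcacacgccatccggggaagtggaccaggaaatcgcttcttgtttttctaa
Adgrb3 (chr1:25829708-25829957, - strand): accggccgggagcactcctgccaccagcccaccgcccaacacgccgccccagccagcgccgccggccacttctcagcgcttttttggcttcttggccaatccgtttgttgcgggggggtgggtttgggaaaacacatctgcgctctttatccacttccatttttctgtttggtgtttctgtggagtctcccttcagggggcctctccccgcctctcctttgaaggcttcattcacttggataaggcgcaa
AGGAAG was present 1 time before Adgrl4 and 1 time before start 1 of Adgrf5, as its reverse complement there. It was found in 29.5% of all 32851 promoters of that length, and it was also before Adgrl1, Adgrl2 and 1 of the starts of Adgrl3. ACAAT, in 27.7% of all promoters, was before 1 start each of Adgrl3 and Adgrg1, and TATAAA, in 12.4%, before Adgrl2 and 1 start of Adgrl3. None of the 4 motifs was in the windows of start 2 of Adgrf5, of Adgrb3 and of Adgrg6, nor in those of 1 more start each of Adgrl3 and Adgrg1. CGGAAG, in 13.6% of all promoters, was in no window of these genes. Adgrl4 held 5 CG dinucleotides and Adgrf5 5 and 7 at its starts, close to the median of 6 over all promoters. Adgrb3 held 14, Adgrl1 21, Adgrg6 32 and Adgrl3 36, 18 and 18 at its starts. Adgrg1, which was lower in embryonic fragments than in rest of brain, held 4 at each start, and Adgrl2 held 3. A match of letters is a description and shows no binding.

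Endothelial and neuron marker levels followed the labels, while the list of microglia and macrophages was also higher in fragments of both ages. The 12 endothelial markers (Pecam1, Cdh5 and others) had a mean log2 intensity over the list of 12.75 to 13.06 per array in embryonic and 12.77 to 12.92 in adult fragments, and of 4.94 to 5.27 in rest of brain. The 10 neuron markers lay at 12.05 to 12.28 in rest of brain, at 6.27 to 7.34 in embryonic fragments, highest on replicate 2, and at 4.41 to 4.85 in adult fragments, where 5 of them, Rbfox3 and Tubb3 included, lay under 4 on every array. The mean of the 12 markers of microglia and macrophages was 10.50 to 12.23 in embryonic fragments, lowest on replicate 1. It was 11.23 to 11.96 in adult fragments and 7.90 to 8.20 in rest of brain. Of these markers only Mrc1 was not called in adult fragments against rest of brain (-0.06, limma adjusted p = 0.872). The 10 markers of neural progenitors and glia lay at 7.40 to 8.68 in embryonic fragments, 8.55 to 9.17 in adult fragments and 11.32 to 11.74 in rest of brain. Of 8 measured markers of blood leukocytes, 7 lay under 4 on every embryonic fragment array and 6 on every adult one. Within groups, Pearson's r across genes (which do not count as replicates) was 0.978 to 0.993.

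**Figure D1:**
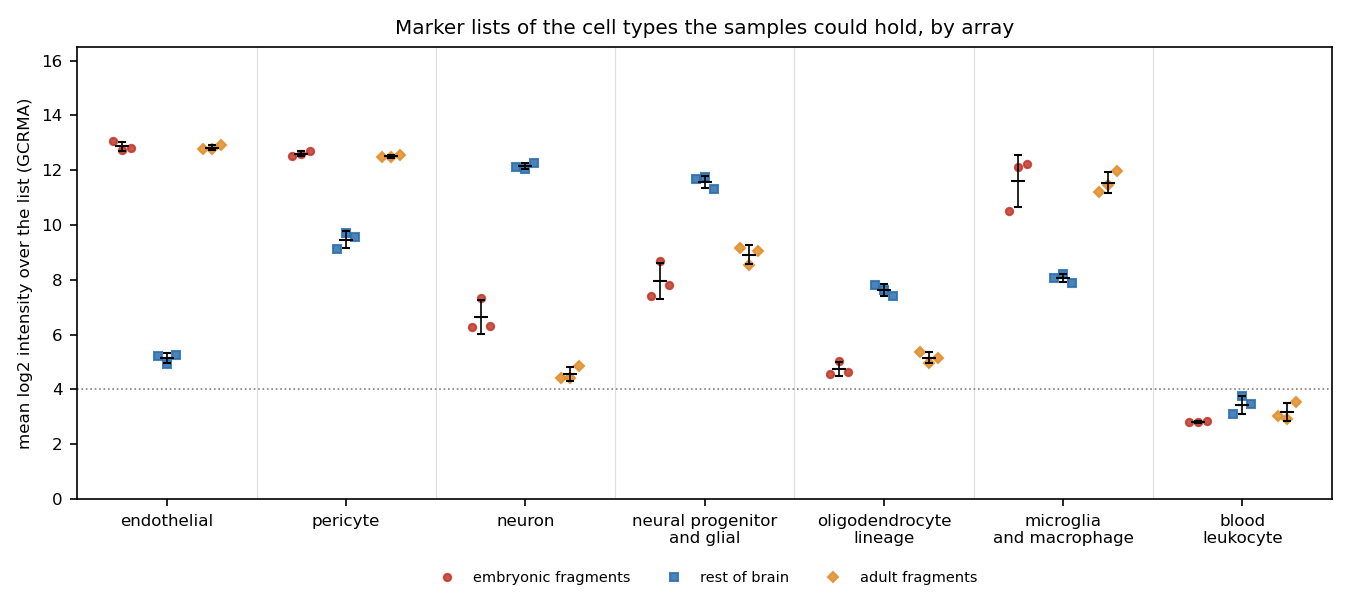
Mean log2 intensity (GCRMA) over each marker list on each array (points, offset by group), with the mean and SD of the 3 arrays of a group in black and a dotted line at 4. Endothelial, pericyte and macrophage lists are high in fragments of both ages, neuron and oligodendrocyte lists in rest of brain.

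Embryonic fragments against rest of brain asks which of the receptors the vessels hold beside the remaining brain of the same strain and, by title, the same age. Adgrl4, Adgrf5 and Adgre5 were far higher in fragments, Adgrl2 was moderately higher, and Adgrb3, Adgrg1 and Adgrl1 were lower. By their main probe sets 6 receptors were called higher and 3 lower (limma, adjusted p under 0.05 over 12009 genes). In this comparison 66.1% of all tested genes were called, 28.9% as higher and 37.2% as lower, and the arrays of the groups did not overlap for 76.7% of genes and for 9 of the 9 receptors. The share of 9 in 9 is to be read against that high background. Over the 19 tested probe sets of the 9 genes, fitted with the other probe sets of the array, 10 were called higher, 6 lower and 3 not called, where 63.8% of 20636 tested probe sets were called. The calls of Adgrl3 and Adgrg6 as higher were not shared by all of their other probe sets. The median log2 difference was 1.20 over the 9 genes and -0.10 over all tested genes. In tissue samples such as these, fewer cells of a type and less RNA per cell cannot be told apart.

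**Figure D2:**
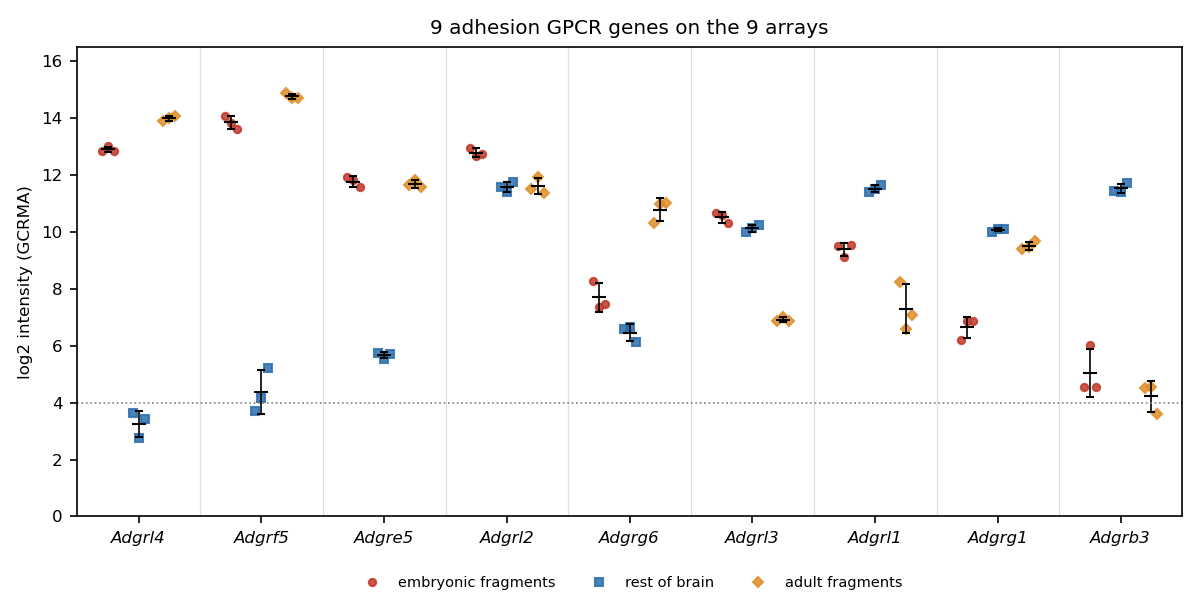
Log2 intensity (GCRMA) of the 9 receptors on the 9 arrays (points, offset by group), with the mean and SD of each group of 3 in black and a dotted line at 4. Adgrl4, Adgrf5 and Adgre5 stand apart in fragments of both ages, Adgrb3 in rest of brain, and Adgrg1 is low in embryonic fragments alone.

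Adgrl4, an orphan receptor of endothelial cells involved in vessel sprouting, had log2 intensities of 12.85, 13.01 and 12.85 in embryonic fragments and of 3.62, 2.74 and 3.42 in rest of brain. All 3 arrays of rest of brain lay under 4, the level treated as background. Adgrl4 was therefore at least 478-fold higher in embryonic fragments (fitted log2 difference 9.64 ± 0.21 SE, limma adjusted p = 1.86e-09). Adult fragments had 13.91, 13.99 and 14.06, above every embryonic array. The adult mean was higher by 1.08 ± 0.21 than the embryonic one (adjusted p = 0.00205), and at least 1015-fold above rest of brain. On the other probe set the difference between the ages was 0.32 ± 0.19 and was not called (adjusted p = 0.195), while rest of brain lay under 4 on all 3 arrays. It was at least 431-fold higher in embryonic and at least 539-fold higher in adult fragments there. Both probe sets thus called Adgrl4 higher in fragments than in rest of brain, and 1 of them called it higher in adult than in embryonic fragments.

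Adgrf5, a large receptor of endothelium and of lung epithelium, where it governs surfactant, had 14.08, 13.84 and 13.63 in embryonic fragments. In rest of brain it had 3.71, 4.16 and 5.23, with replicate 3 highest and replicate 1 under 4. The groups lay far apart, with a log2 difference of 9.48 ± 0.34 (adjusted p = 2.75e-08). Adult fragments had 14.87, 14.71 and 14.71, all above the embryonic arrays. The difference between the ages was 0.91 ± 0.34 (adjusted p = 0.0448, 95% interval 0.14 to 1.68). This call was lost without any 1 of the 6 fragment arrays or rest of brain replicate 2 (differences of 0.80 to 1.03, adjusted p = 0.0549 to 0.125), with no filter on low values (adjusted p = 0.0993) and with array weights (adjusted p = 0.0535). The other probe set gave 0.55 ± 0.25 between the ages and was not called (adjusted p = 0.0900), and 8.65 ± 0.25 between embryonic fragments and rest of brain.

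Adgre5, known as CD97, is carried by leukocytes and other cells and binds the complement regulator Cd55. It had 11.93, 11.81 and 11.56 in embryonic fragments, 11.64, 11.83 and 11.56 in adult fragments and 5.76, 5.55 and 5.70 in rest of brain. Fragments of both ages overlapped, and every fragment array lay far above rest of brain. The log2 difference between embryonic fragments and rest of brain was 6.10 ± 0.13 (adjusted p = 1.98e-09). Between the ages it was -0.09 ± 0.13 (adjusted p = 0.598, 95% interval -0.39 to 0.21), with a sign that turned (0.041) after cyclic loess. The identifier of its single probe set ends in _a_at, which marks probes shared by several transcripts of 1 gene. All 12 macrophage markers were higher in embryonic fragments as well, with a mean of 10.50, 12.10 and 12.23 on replicates 1, 2 and 3, and their part in the Adgre5 values was not tested. Over the alternatives run, the difference between embryonic fragments and rest of brain was 6.02 to 6.20. Cd55 had 6.33 ± 0.06 in embryonic fragments and 5.89 ± 0.42 in rest of brain and was not called (adjusted p = 0.0876), and it was higher in adult than in embryonic fragments by 0.57 (adjusted p = 0.0385).

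Among the latrophilins, receptors for the membrane proteins of the Flrt and teneurin families, Adgrl2 was the one whose probe sets agreed on a higher level in embryonic fragments. It had 12.96, 12.66 and 12.73 there, 11.57, 11.42 and 11.75 in rest of brain and 11.50, 11.92 and 11.39 in adult fragments. Embryonic fragments lay above all other arrays, by 1.20 ± 0.17 over rest of brain (adjusted p = 2.02e-04) and with adult fragments lower by 1.18 ± 0.17 (adjusted p = 3.73e-04). Adult fragments and rest of brain overlapped, at a difference of 0.02 ± 0.17 (adjusted p = 0.908, 95% interval -0.36 to 0.40). The next probe set gave a smaller difference of 0.45 ± 0.16 between embryonic fragments and rest of brain (adjusted p = 0.0389) and -0.26 ± 0.16 between the ages, which was not called (adjusted p = 0.209). Another probe set of Adgrl2 lay under 4 throughout, with group means of 2.72 to 2.77.

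Adgrl1 had 11.42, 11.51 and 11.64 in rest of brain, 9.51, 9.13 and 9.54 in embryonic fragments and 8.24, 6.57 and 7.09 in adult fragments. The 3 groups did not overlap, and rest of brain was highest. Embryonic fragments were lower by 2.13 on the log2 scale, at a difference of -2.13 ± 0.36 (adjusted p = 7.63e-04), and adult fragments lower again at -2.09 ± 0.36 against embryonic ones (adjusted p = 0.00122). The other probe set was lower in embryonic fragments too (-1.35 ± 0.14, adjusted p = 3.80e-05), but between the ages it gave -0.30 ± 0.14 and was not called (adjusted p = 0.110). The mean of the neuron markers was ordered in the same way over the groups. Of the 10 markers 5 were called lower and 1 higher in adult than in embryonic fragments, where 57.1% of all tested genes were called. Their part in the Adgrl1 values was not tested.

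Adgrl3 was the latrophilin with the sharpest difference between the ages. Its main probe set had 10.66, 10.59 and 10.30 in embryonic fragments, 10.0015, 10.12 and 10.24 in rest of brain and 6.86, 7.004 and 6.88 in adult fragments. Adult fragments stood far below both embryonic groups. The fall from embryonic to adult fragments was -3.60 ± 0.13 (12.1-fold, adjusted p = 1.03e-07), and all 5 tested probe sets of the gene were called lower in adult fragments, at -2.81 to -4.28. Neuron markers were lower in adult than in embryonic fragments too, in 5 of 10 cases with 1 higher, where 57.1% of all tested genes were called. Their part in this fall was not tested.

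Between embryonic fragments and rest of brain the probe sets of Adgrl3 contradicted each other, so no direction is given for the gene. The main probe set, whose ending _x_at marks probes that may cross-hybridize with other genes, had 0.39 ± 0.13 (adjusted p = 0.0221). The call was lost when replicate 1 or 2 of either embryonic group was left out (0.32 to 0.39, adjusted p = 0.0539 to 0.0768) and with the replicate number as a block (adjusted p = 0.0774). Of the other 4 tested probe sets, 1 was lower in embryonic fragments by -1.30 ± 0.18 (adjusted p = 2.12e-04), 1 was higher by 0.63 ± 0.19 (adjusted p = 0.0163), and those at 0.44 and -0.25 were not called. The mean of all its probe sets gave 0.01 (adjusted p = 0.972).

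**Figure D3:**
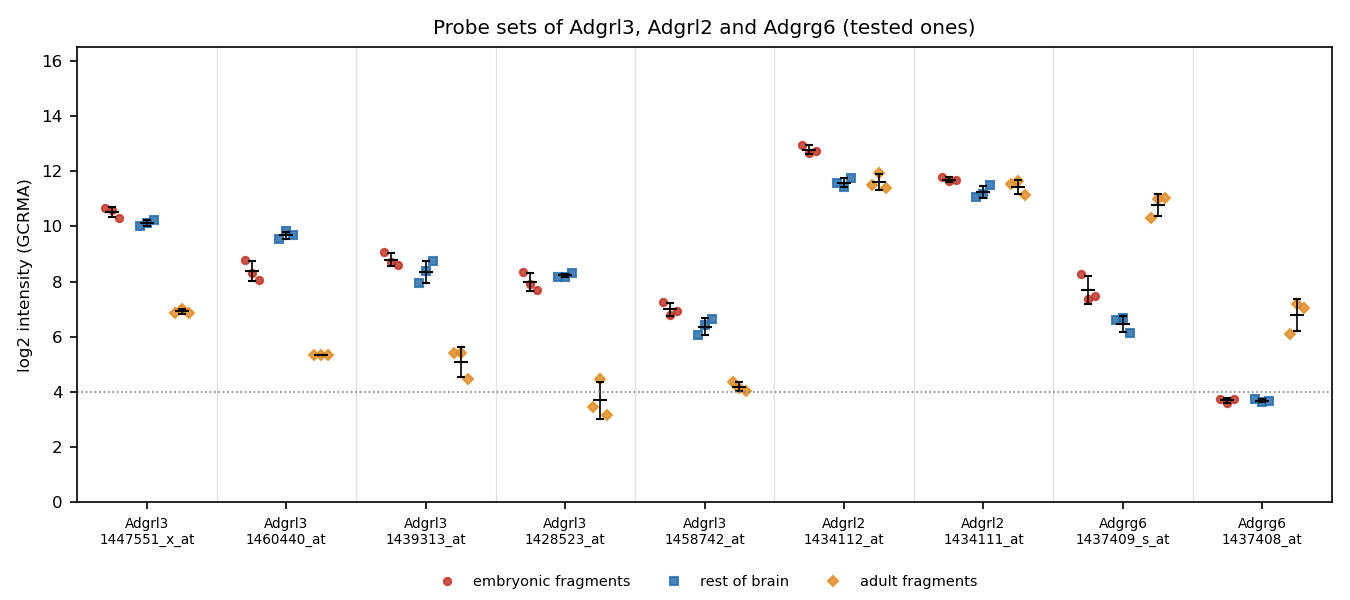
Log2 intensity (GCRMA) of the tested probe sets of Adgrl3, Adgrl2 and Adgrg6 on the 9 arrays (points, offset by group), with group means and SD in black and a dotted line at 4. Adult fragments are lowest on all 5 probe sets of Adgrl3, embryonic fragments and rest of brain change their order between them, and only the adult arrays of the last Adgrg6 probe set lie above 4.

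Adgrg6, a receptor for type IV collagen and other matrix proteins that Schwann cells need for myelination, was highest in adult fragments. It had 10.31, 10.98 and 11.03 there, 8.27, 7.36 and 7.46 in embryonic fragments and 6.59, 6.66 and 6.12 in rest of brain. Every adult array lay above every embryonic one, by 3.08 ± 0.29 over embryonic fragments (8.45-fold, adjusted p = 3.58e-05). Its other probe set, in which both embryonic groups lay under 4 (means of 3.70 and 3.69), had 6.78 ± 0.59 in adult fragments and was called higher too, at least 6.88-fold (adjusted p = 1.77e-05). The difference between embryonic fragments and rest of brain was 1.24 ± 0.29 on the main probe set (adjusted p = 0.00485), whose ending _s_at marks probes shared with other genes or transcripts. On the other probe set both groups were at background, and no difference is read there.

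Adgrg1, known as GPR56, binds collagen III and transglutaminase 2 and is found on neural progenitors, oligodendrocyte precursors, astrocytes and microglia. It was lower in embryonic fragments, with 6.21, 6.86 and 6.86, than in rest of brain, with 10.01, 10.12 and 10.12, and than in adult fragments, with 9.40, 9.46 and 9.67. The embryonic fragment arrays stood alone at the low end. The difference from rest of brain was -3.44 ± 0.18 (10.8-fold lower, adjusted p = 3.44e-07), and adult fragments were higher than embryonic ones by 2.87 ± 0.18 (7.29-fold, adjusted p = 3.40e-06). Both probe sets of the gene made these calls, at -3.50 and 2.73 on the other one. The main one ends in _x_at, and the other in _a_at, for transcripts of 1 gene.

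As Adgrg1 was higher in adult than in embryonic fragments, so were 5 of 9 tested markers of neural progenitors and glia, while 2 were lower. In this comparison 57.1% of all tested genes were called. The median difference of the list was 1.26, but its genes moved in opposite directions. Slc1a2 (8.80, 2 of 3 embryonic arrays under 4), Mlc1, Aqp4, Aldoc and Slc1a3 were higher, and Fabp7 (-6.19) and Gja1 lower. Of the 12 macrophage markers 1 was higher (Itgam, 3.31, with 1 of 3 embryonic arrays under 4) and 2 were lower (Mrc1, -4.84, and Cd163, -3.29). The mean of that list lay at 11.23 to 11.96 in adult and 10.50 to 12.23 in embryonic fragments, which hides these opposite moves. The part of either list in the difference of Adgrg1 between the fragments was not tested. Adult fragments were lower in Adgrg1 than rest of brain by a small margin (-0.57 ± 0.18, adjusted p = 0.0184). It was not called when adult fragments replicate 1, or replicate 2 or 3 of rest of brain, was left out (-0.52 to -0.56, adjusted p = 0.0514 to 0.0582) and after cyclic loess (-0.42, adjusted p = 0.0594), while the other probe set gave -0.77 ± 0.18 (adjusted p = 0.00461).

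Adgrb3, a receptor of synapses that binds C1q-like proteins, was the receptor with the strongest bias to rest of brain. It had 11.45, 11.42 and 11.71 in rest of brain, 4.55, 6.03 and 4.54 in embryonic fragments and 4.52, 4.54 and 3.59 in adult fragments. Fragments of both ages lay near the level of 4, with embryonic replicate 2 above the other 5. The difference between embryonic fragments and rest of brain was -6.49 ± 0.42 (89.6-fold lower, adjusted p = 1.21e-06). Embryonic fragments replicate 2 also had the highest mean of the neuron markers among the fragment arrays (7.34 against 6.27 and 6.30 in embryonic fragments), and without it the difference was -6.98. Between the ages the difference was -0.83 ± 0.42 and was not called (adjusted p = 0.125, 95% interval -1.78 to 0.13), and it shrank to -0.33 without that array. C1ql3, the partner of Adgrb3 that passed the filter, had 8.28 ± 0.03 in rest of brain and lay under 4 on every fragment array, at least 19.5-fold lower.

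Adult against embryonic fragments asks how the same kind of tissue differs at the 2 ages, with strain and kit differing as well. Adgrg6 and Adgrg1 were higher and Adgrl3 lower in adult fragments on every tested probe set. Of the 9 receptors 4 were called higher and 3 lower, in a comparison where 57.1% of all tested genes were called (27.4% higher, 29.7% lower). Adgrl4, Adgrf5, Adgrl1 and Adgrl2 were called on the main probe set and not on their next one. The arrays of the 2 ages did not overlap for 8 of the 9 receptors and for 62.6% of all tested genes. Of the 19 tested probe sets 6 were called higher, 7 lower and 6 not called, where 55.9% of all tested probe sets were called. The median log2 difference was -0.09 over the 9 genes and -0.02 over all tested genes.

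Adult fragments against rest of brain differ in tissue, age, strain and kit together and share arrays with the other comparisons, so their values are given beside those. Adgrl4, Adgrf5, Adgre5 and Adgrg6 were called higher and Adgrb3, Adgrl1, Adgrl3 and Adgrg1 lower, with 76.0% of all tested genes called (33.1% higher, 42.9% lower). The arrays did not overlap for 8 of the 9 receptors and for 79.9% of all tested genes, and of the 19 probe sets 7 were called higher and 10 lower, against 73.1% of all probe sets. Adgrf5 was higher by 10.39 ± 0.34, Adgre5 by 6.01 ± 0.13 and Adgrg6 by 4.32 ± 0.29. Adgrb3 had -7.31 ± 0.42 (1 of 3 adult arrays under 4), Adgrl1 had -4.22 ± 0.36 and Adgrl3 -3.21 ± 0.13. Over all tested genes the median was -0.17 as deposited and -0.03 after cyclic loess.

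**Figure D4:**
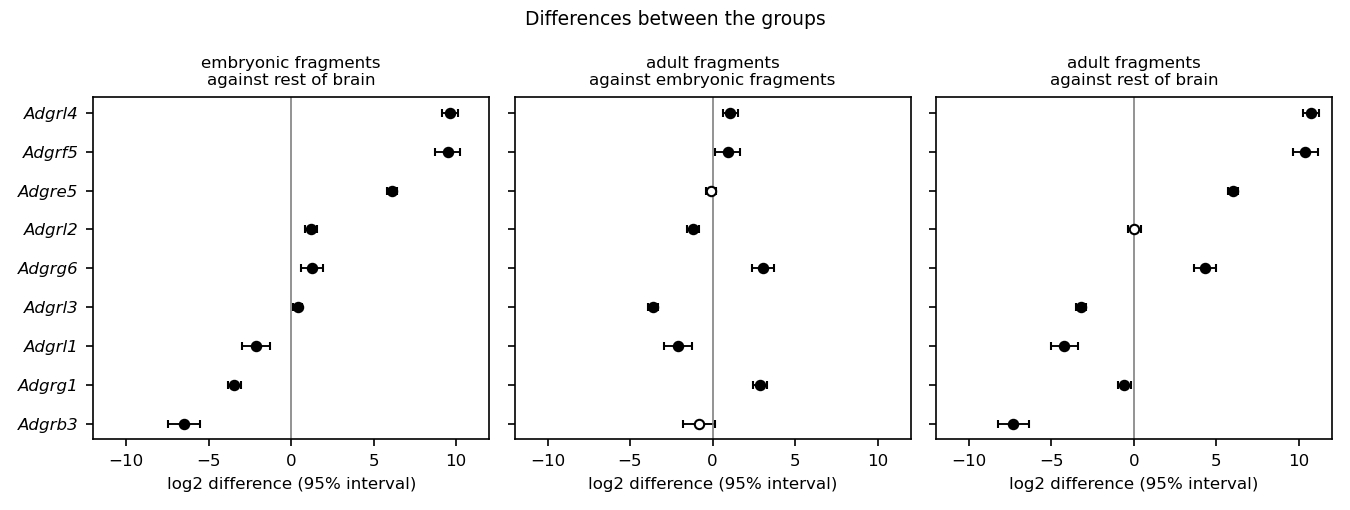
Log2 difference of each receptor in each comparison with its 95% interval from the limma fit; filled points were called and open points were not. Adgrl4, Adgrf5 and Adgre5 lie far to the right in both comparisons with rest of brain, and Adgrg6, Adgrg1 and Adgrl3 differ most between the ages.

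The order of the groups differed from receptor to receptor. Adgrl4, Adgrf5 and Adgrg6 ran from adult fragments over embryonic fragments to rest of brain, with each neighbour called on the main probe set, and Adgrl1 ran the other way. For Adgre5 the fragments of the 2 ages did not differ beyond their spread, for Adgrb3 likewise, and for Adgrl2 adult fragments and rest of brain did not. Adgrg1 ran from rest of brain over adult to embryonic fragments. For Adgrl3 the order of the embryonic groups was not settled, since its probe sets disagree, and adult fragments came last.

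Likeness to other genes was measured as the root mean square distance between the values on the 9 arrays, each gene centred on its own mean. Since the arrays form 3 groups, it mostly compares group levels and carries no test. Values under 4 entered it as deposited though they carry no order, as in the means of Vwf and Erg in rest of brain. Closest to Adgrl4 were Mmrn2 (0.31), an endothelial matrix protein, Vwf (0.31), the clotting glycoprotein of endothelium, and Ptprb (0.33), the endothelial phosphatase of Tek. Closest to Adgrf5 were Tek (0.26), the angiopoietin receptor, Mmrn2 (0.41) and Erg (0.45), an ETS factor of endothelium. Adgrl4 and Adgrf5 were 0.47 apart, the smallest distance of any pair of the 9. Adgre5 was nearest to Afap1l1 (0.13), Fgd5 (0.24), an exchange factor of endothelium, and Card10 (0.26).

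Among the other receptors, Adgrb3 was closest to Add2 (0.20), a cytoskeletal protein of neurons and red cells. Next to it came Gnao1 (0.24), the main G protein alpha subunit of neurons, and 9330159F19Rik (0.28). Adgrg1 was closest to Nrbp2 (0.25), Gjb6 (0.27), a connexin of astrocytes, and Rai2 (0.31). Adgrl1 had Sox4 (0.27), a factor of immature neurons, Gp1bb (0.28) and Mex3b (0.33) beside it. Adgrg6 was nearest to Mgst2 (0.19), Prss23 (0.31) and Cp (0.34), which encodes ceruloplasmin. Adgrl2 lay by Trip12 (0.13), Dnajc13 (0.15) and Ercc6 (0.16), and Adgrl3 by Arhgef39 (0.16), Tspan6 (0.16) and Ccnf (0.24), a cyclin. Means under 4 were those of Gnao1 and Arhgef39 in adult fragments and of 9330159F19Rik in fragments of both ages. So were those of Mgst2 in both embryonic groups and of Ercc6 in rest of brain and adult fragments.

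The array measured 16 of 21 other genes of the adhesion family looked for, of which 12 passed the filter. In embryonic fragments 8 of the 12 were lower and 3 higher than in rest of brain, where 66.1% of all tested genes were called. Their median difference was -3.10, and that of the 9 receptors was 1.20. No test was made between these medians, and the 9 receptors and the lists were chosen with earlier results of these data known. Adgra2, a coreceptor for Wnt7 ligands at the blood-brain barrier, was higher in embryonic fragments by 6.22 ± 0.24 (10.83 ± 0.37 against 4.61 ± 0.40, adjusted p = 4.20e-08). Adgrb2, of the same subfamily as Adgrb3, had 9.02 ± 0.10 in rest of brain and lay under 4 on every fragment array, at least 32.5-fold lower in embryonic fragments. Celsr3, a planar polarity cadherin of growing axons, had 9.19 ± 0.13 in rest of brain, at least 36.6-fold above the fragments of either age. Celsr1, a cadherin of the same group, had 9.14 ± 0.09 there and lay under 4 on every fragment array, at least 35.3-fold lower, so these 3 have no order among them.

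Between the ages 1 of the 12 other family members was higher and 4 were lower in adult fragments, where 57.1% of all tested genes were called. Adgre4, a macrophage receptor related to Adgre5, was higher by 2.87 ± 0.43 (7.29 ± 0.77 against 4.42 ± 0.71, 1 of 3 embryonic arrays under 4, adjusted p = 5.21e-04). Adgrg3, a receptor close to Adgrg1 in the family, had 5.55, 5.12 and 4.56 in embryonic fragments and lay under 4 in the other groups, at least 2.11-fold lower in adult fragments (adjusted p = 1.26e-04). Adgra3 had a difference of -0.92 ± 0.13 (adjusted p = 3.09e-04). Celsr1 and Celsr3 were called lower between values that all lay under 4. Against rest of brain, 4 of the 12 were higher and 8 lower in adult fragments, where 76.0% of all tested genes were called. Adgra2 was higher there by 5.97 ± 0.24, and Adgrg3 was called although both groups lay under 4.

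**Figure D5:**
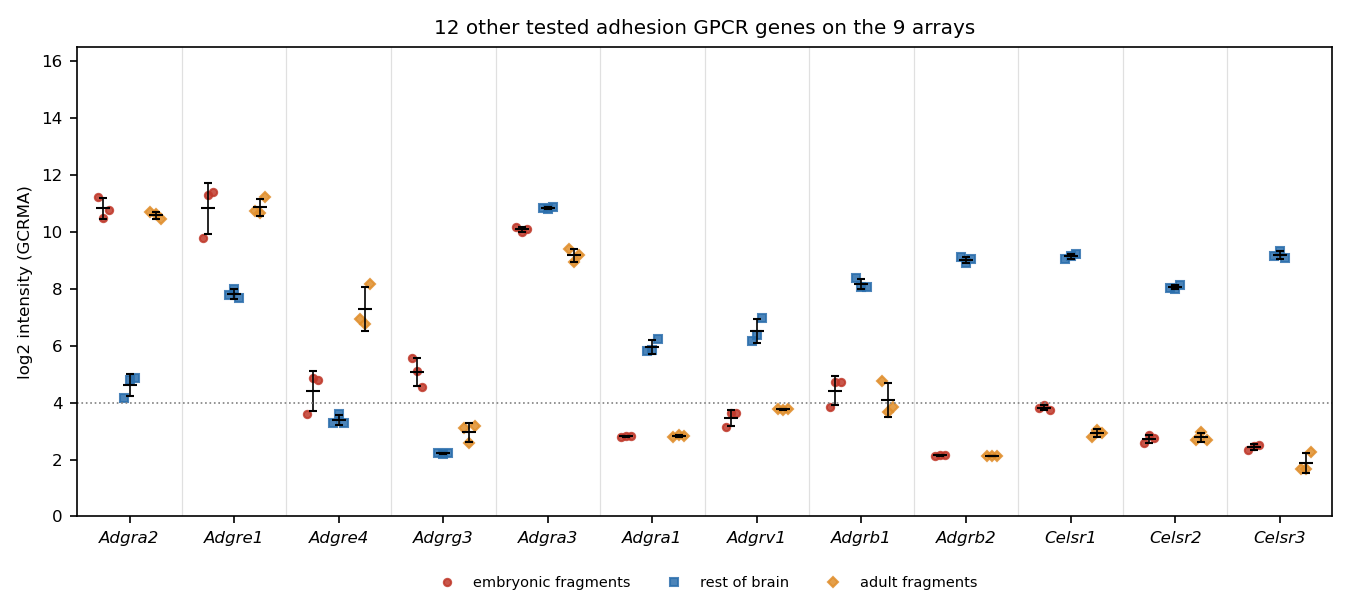
Log2 intensity (GCRMA) of the 12 other tested adhesion receptors on the 9 arrays (points, offset by group), with group means and SD in black and a dotted line at 4. Adgra2 and Adgre1 are high in fragments of both ages, while Adgrb1, Adgrb2 and the Celsr genes are high in rest of brain.

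Of 28 ligands and partners of the 9 receptors, 22 were tested. In embryonic fragments 6 were higher and 13 lower than in rest of brain (median -3.31), where 66.1% of all tested genes were called. Between the ages 5 were higher and 8 lower in adult fragments (median -0.13), near the share of 57.1% called over all tested genes. The teneurins Tenm2 and Tenm3, partners of the latrophilins, had -7.32 ± 0.61 and -6.55 ± 0.31 in embryonic fragments against rest of brain (Tenm3 under 4 on 1 of 3 fragment arrays). Unlike them, Flrt2 was level across the groups, with no call in any comparison. It had 12.33 ± 0.34 in embryonic fragments, 12.41 ± 0.09 in adult fragments and 12.09 ± 0.19 in rest of brain. Flrt1 and Flrt3, however, were lower in fragments of both ages than in rest of brain. Flrt3 had -4.92 ± 0.30 in embryonic and -5.10 ± 0.30 in adult fragments. Flrt1 was at least 8.43-fold lower in embryonic fragments and had -2.50 ± 0.16 in adult ones. Against rest of brain, adult fragments were higher in 7 and lower in 14 of the 22, where 76.0% of all tested genes were called. Tenm2 had -8.99 ± 0.61 (1 of 3 adult arrays under 4) and Nrxn3, a neurexin, -7.64 ± 0.33 (2 of 3 under 4).

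For Adgrg1, transglutaminase Tgm2 was higher in embryonic fragments than in rest of brain by 4.91 ± 0.15 (adjusted p = 1.05e-08), and higher again in adult ones by 1.92 ± 0.15 (adjusted p = 1.01e-05), which left adult fragments above rest of brain by 6.83 ± 0.15. Its probe set ends in _x_at, and the deposited value was the same on all 3 embryonic fragment arrays (13.23), so its spread there is not known. Col3a1, collagen III, had 12.54 ± 0.20 in embryonic fragments and 9.93 ± 0.45 in adult ones, a difference of -2.61 ± 0.22 (adjusted p = 1.88e-05). So the 2 ligands of Adgrg1 differed between the ages in opposite directions.

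The ligands of Adgrg6 are given in full, by receptor, a choice made after their values were seen. Col4a1 and Col4a2, the chains of vascular collagen IV, were higher in embryonic fragments than in rest of brain by 2.79 ± 0.14 and 4.18 ± 0.15, and between the ages they had -1.68 ± 0.14 and -3.23 ± 0.15, while Adgrg6 was higher in adult fragments. Lama2, a laminin chain, was higher in embryonic fragments than in rest of brain by 0.67 ± 0.16 and not called between the ages at 0.08 ± 0.16 (adjusted p = 0.724). Prnp, the prion protein, was higher in embryonic fragments by 1.28 ± 0.12 and not called between the ages at -0.31 ± 0.12 (adjusted p = 0.0504).

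Of 13 G protein alpha subunits, which carry the signal of such receptors into the cell, 11 were tested. In embryonic fragments 2 were higher and 5 lower than in rest of brain (median -0.11, as over all tested genes at -0.10). Gnao1 and Gnal had -6.41 ± 0.36 (1 of 3 fragment arrays under 4) and at least 24.8-fold lower values there, and Gnai2 was higher by 1.18 ± 0.13. Between the ages 3 were higher and 4 lower, with Gnai1 at -1.55 ± 0.15 and Gna12 at -1.24 ± 0.22 in adult fragments, and Gnaz up from values under 4 by at least 1.06-fold. Gnaq, measured on all arrays, was higher in adult fragments by 0.40 ± 0.11 (adjusted p = 0.0125). Against rest of brain, 2 were higher and 6 lower in adult fragments. Gnao1 was at least 95.9-fold and Gnal at least 24.8-fold lower there, and Gnai2 was higher by 0.74 ± 0.13. Over all tested genes, 66.1% were called between embryonic fragments and rest of brain, 57.1% between the ages and 76.0% in the last comparison. The counts of called subunits lay near these shares.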

How the data were processed

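The deposited values are log2 intensities per probe set and array, which the authors obtained by GCRMA 2.6.0 under R 2.4.1, as the submitters' processing notes say. The log2 scale was inferred from the range of the values, and no other step is given. GCRMA evens out the distributions of the arrays, so a change in total RNA cannot be seen, and the number of arrays limits the precision. Array medians were 3.58 to 3.67, and 0 columns were left unused.

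Of 45101 probe sets, 34958 carry 1 gene name in the platform annotation, 932 several and 9211 none. Symbols were checked through Entrez identifiers in a RefSeq table of GRCm38.p6, which found 34754 probe sets and changed 0 names. limma 3.58.1 in R 4.3.3 (lmFit, eBayes, 2-sided, all 9 arrays, group as factor) was run over 12009 genes with Benjamini-Hochberg adjustment, and tested on simulated data. SE and 95% intervals are from that fit. Where all 3 arrays of a group lay under 4, folds were computed with 4 in place of that group's mean and are written "at least".

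Embryonic arrays share replicate numbers. The deviations of same-numbered fragments and rest of brain from their group means correlated at 0.19, 0.20 and 0.22 over the tested genes. Those of other pairs correlated at -0.21 to -0.02, but deviations cancel within a group, so these values are not separate evidence. The numbers may pair the samples, but that reading rests on these values alone and is not settled by them. The reported fit used no block, and the block was run as an alternative, in which Adgrl3 lost its call between embryonic fragments and rest of brain.

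The 9 receptors and the gene lists were chosen with earlier results of these data known. From the family, ligand and G protein lists, the 2 largest called differences in the main direction and the 1 largest in the other were named per comparison by the fitted difference, which gives no order where a group lay under 4, and as most like a receptor the 3 nearest genes. C1ql3, Cd55, Celsr1, Flrt1, Flrt2, Flrt3, Gnaq and the ligands of Adgrg6 were named beside this rule after their values were seen. Marker lists are given by counts and levels. No protein sequences were used here.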

Additional observations from a re-analysis of the deposited data

How the results depend on the processing

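Each result was recomputed without each array in turn, with other scaling, filters, weights, priors and probe sets, with the compared groups alone and, for the embryonic comparison, with a replicate block. Fitting all probe sets at once, and leaving out only those ending in _s_at or _x_at, were chosen after seeing the data. Of 570 values of single receptors, 544 kept direction and call, 21 lost the call, 0 gained one and 5 changed sign. The sign changes were Adgrl3 between embryonic fragments and rest of brain without probe sets ending in _s_at or _x_at (-1.30, and -1.30 also with those ending in _a_at left out), Adgre5 between the ages after cyclic loess (0.041), and Adgrl2 between adult fragments and rest of brain, which was not called and lay at -0.14 to 0.13 as single arrays were left out, with -0.057 without rest of brain replicate 2 and -0.14 without adult fragments replicate 2. For the sign changes of Adgrl3 and the 2 lost calls of Adgrg6 the alternative reads another probe set. The cause of the other changes, calls of Adgrl3 lost on its main probe set included, was not tested.

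With single arrays left out, 8 to 9 receptors were called between embryonic fragments and rest of brain, 6 to 7 between the ages and 7 to 8 between adult fragments and rest of brain. With the replicate block 8 were called, Adgrl3 losing its call (adjusted p = 0.0774), and it changed no other call. Without probe sets ending in _s_at or _x_at 8, 7 and 8 were called in these comparisons, with Adgrg6 not called between embryonic fragments and rest of brain (both at background). With those ending in _a_at left out too, 6 were called in each, since Adgrg1 and Adgre5 then have no probe set. Averaging the probe sets of a gene lowered Adgrl2 in embryonic fragments against rest of brain to 0.57 and Adgrl1 between the ages to -1.19, both still called. Scanner files were not used here, so other background corrections were not run. Values under 4 carry no order, which limits Adgrl4 in rest of brain, where all 3 arrays lay there, and touches 1 array each of Adgrf5 in rest of brain and Adgrb3 in adult fragments.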
